A study of Mus musculus with 6 samples.

Results

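The endoplasmic reticulum (ER) folding and quality control genes examined here were 40 named genes, taken by symbol from the 39017 genes of the deposited count table. They fall into 4 roles. There were 11 chaperones and glycoprotein-folding lectins, 11 genes of disulfide formation and oxidative folding, 14 genes of ER-associated degradation (ERAD) and 4 sensors of the unfolded protein response (UPR). All 40 symbols were found once in the table, and 39 had enough counts to be tested. The exception was Pdia5, a protein disulfide isomerase, with between 0 and 12 counts per library.

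RNA was from induced germinal center B cells (iGBs), which are C57BL6/J splenic B cells grown for 3.5 days on 40LB feeder cells that supply CD40L and BAFF, with IL-4, and then freed of the feeders with anti-H2K and magnetic beads. Control iGBs were from 3 Cγ1-cre mice and Prmt1-null iGBs from 3 Prmt1 F/F Cγ1-cre mice, with 2 females and 1 male in each group and 1 library per mouse. Both groups therefore carry the Cre, which is driven from the Cγ1 locus and acts after activation, so that excision takes place in the culture and in activated cells. The labels give IL-4 at 5 ng/ml, whereas the study's methods give a lower concentration, and an age of the mice was not given in the sources used here.

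Secreted and membrane proteins enter the ER unfolded, are held by chaperones and lectins, and receive disulfide bonds from protein disulfide isomerases. Chains that do not fold are recognized, moved back to the cytosol and degraded through ERAD. When unfolded chains build up, the sensors IRE1 (encoded by Ern1), PERK (Eif2ak3) and ATF6 start the UPR, in which the transcription factors XBP1, ATF6 and ATF4 raise the folding and degradation machinery. The pathway is best known in the B lineage for the expansion of the ER in plasma cells (PC), which requires XBP1.

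ATF6 and XBP1 act through short promoter elements, so these were looked up in the RefSeq promoter windows of the members (GRCm38.p6, 250 bases before to 50 after each start). A window was at hand for 36 of the 40 members, and for all but Hyou1, Manf, Derl1 and Atf6. The ER stress response element is read here as CCAAT and CCACG with 9 bases between them, on either strand. It was found in 10 of the 36 members (27.8%) and in 37 of all 27025 genes with a window (0.137%). The members were Calr, Canx, Creld2, Derl3, Dnajc3, Ero1lb, Hsp90b1, Hspa5, Pdia6 and Syvn1, and Hsp90b1 held 2 copies. CCACG alone was in 29 members (80.6%) and in 35.5% of all genes. The sequences below are those of Hspa5 and Hsp90b1, the best known targets, of Calr, the member with the highest level, and of Derl3, Canx and Ero1lb, which carry the same element and had different fold changes. They are written in the direction of the gene, and capitals mark the element, which reads as its reverse complement (CGTGG first, ATTGG last) where it lies on the other strand.
Hspa5, chr2:34772019-34772049, plus strand: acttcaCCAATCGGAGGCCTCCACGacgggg
Hsp90b1, upstream copy, chr10:86705632-86705662, minus strand: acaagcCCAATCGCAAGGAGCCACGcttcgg
Hsp90b1, downstream copy, chr10:86705527-86705557, minus strand: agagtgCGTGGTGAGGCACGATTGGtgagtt
Calr, chr8:84847069-84847099, minus strand: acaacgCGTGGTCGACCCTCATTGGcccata
Derl3, chr10:75893236-75893266, plus strand: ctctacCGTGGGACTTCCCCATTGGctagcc
Canx, chr11:50325794-50325824, minus strand: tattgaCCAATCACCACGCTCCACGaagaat
Ero1lb, chr13:12565676-12565706, plus strand: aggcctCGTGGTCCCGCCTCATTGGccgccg

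Txndc5, which has 2 annotated starts, did not hold the full ER stress response element but had 2 other matches. They are printed because Txndc5 had the smallest p of the members. One was the core of the UPR element (TGACGTGG, which includes CCACG read on the other strand), found also in Txndc11 and Ube2j1 and thus in 8.33% of members and 0.714% of all genes. The other was the ATF4 element (TGATGNAA), which was also in Faf2 and Herpud1, that is in 8.33% of members and 4.51% of all genes. Capitals mark the matched element, and the ATF4 match is on the other strand.
Txndc5, UPR element core, chr13:38528039-38528058, minus strand: cgccgcTGACGTGGcgctag
Txndc5, ATF4 element, chr13:38528916-38528935, minus strand: aagtggTTTCATCAcacccc
These matches are descriptions of the letters in each window. P4hb had none of the 3 elements in its window.

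**Figure D1:**
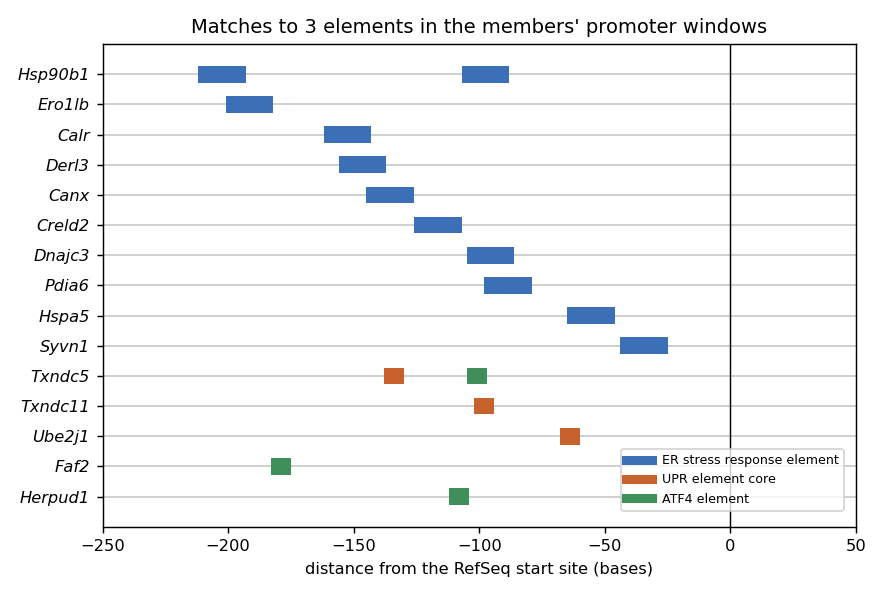
Positions of the matches in the promoter windows of the 15 members that held any of the 3 elements. The horizontal axis is the distance in bases from the RefSeq start, each gray line is a window, and bars are colored by element. Matches lay between positions −212 and −26 from the start, and Hsp90b1 held 2 copies of the ER stress response element.

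Libraries held 45343250 to 62774232 counts. Counts were scaled to the mean effective library size (normalized counts) and tested over 18268 genes with edgeR's quasi-likelihood test and Benjamini-Hochberg adjustment. The threshold was an adjusted p under 0.05 with a mean normalized count over 100. It was passed by 1.18% of all genes in either direction and by 0.58% with higher counts in Prmt1-null iGBs. Prmt1 itself was at 36.9% of its Control level (adjusted p = 1.11e-05). B cell markers were abundant in every library, with a summed level of 10990 to 12710 CPM (counts scaled to library size) over 8 genes. With 3 libraries against 3, an exact permutation test of a single value cannot give a p under 0.10, which is the p of every gene below whose groups did not overlap.

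Of the 39 members tested, 31 (79.5%) had a log2 fold change above 0, against 49.9% of all genes tested. Their median log2 fold change was 0.11, within a range from −0.19 to 0.59, and that of all genes was −0.001. Normalized counts did not overlap between the groups and were higher in Prmt1-null iGBs for 13 members (33.3%), against 9.95% of all genes, and were lower without overlap for 3 members, against 9.92% of all genes. With edgeR the threshold was passed by 3 members, Txndc5, P4hb and Derl3, all of which rose, and not by the other 36. DESeq2 also called 7 of these (Hspa5, Pdia4, Manf, Calr, Sel1l, Os9 and Uggt1), where it called 4.08% of all genes. At an unadjusted p under 0.05 in edgeR, 12 members were higher, against 6.5% of all genes, and 1 was lower, against 7% of all genes. These shares describe the list, which was chosen with earlier results of these data known and was tested only gene by gene.

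**Figure D2:**
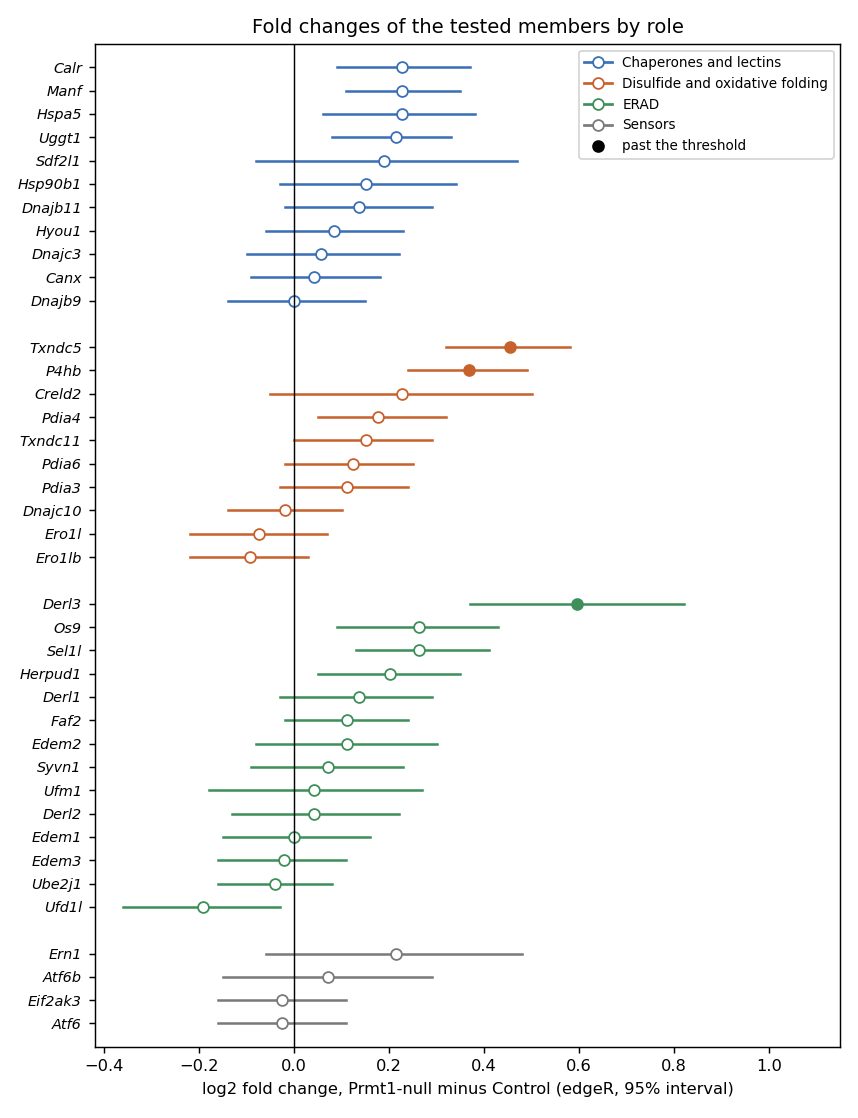
Log2 fold change of each of the 39 tested members, Prmt1-null minus Control, with its 95% confidence interval from edgeR, by role. Filled circles mark Txndc5, P4hb and Derl3, which passed the threshold, and Ufd1l was the lowest at −0.19.

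None of the 11 chaperones and lectins passed the threshold with edgeR, where 4 had an unadjusted p under 0.05, and Hspa5, Manf, Calr and Uggt1 passed with DESeq2. All 11 had fold changes above 0, with a median of 0.15 on the log2 scale. Groups did not overlap for Manf, Calr and Uggt1. Hspa5 encodes BiP, the main ER chaperone of the HSP70 family and the protein that keeps the sensors inactive. Its normalized counts were 18958, 21185 and 18326 in Control and 20867, 24056 and 23255 in Prmt1-null iGBs. Control replicate 2 was above Prmt1-null replicate 1, so that the groups overlapped, and the log2 fold change was 0.22 (SE, the standard error of the fit, 0.074, with an adjusted p of 0.185). Hsp90b1, which encodes the HSP90 of the ER, varied more within Control, from 23870 to 30192, than between the group means, and had a log2 fold change of 0.15 (adjusted p = 0.477).

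Manf encodes a small secreted ER protein that binds BiP. It varied little in Control, with 11287, 11166 and 11232 normalized counts, against 12800, 12862 and 13842 in Prmt1-null iGBs. All 3 Prmt1-null libraries were higher, with a log2 fold change of 0.23 (SE 0.058) and an adjusted p of 0.0784 from edgeR.

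The calnexin and calreticulin cycle retains glycoproteins until they are folded. Calr, which encodes its soluble lectin, had 78654, 80316 and 76006 normalized counts in the Control libraries, against 86053, 89482 and 99461 in Prmt1-null libraries. The groups did not overlap, Prmt1-null replicate 3 was the highest, and the log2 fold change was 0.23 (SE 0.065, adjusted p = 0.119). Uggt1, the folding sensor that returns unfinished glycoproteins to the cycle, had 11929, 11516 and 11749 normalized counts against 13498, 14046 and 13115. These also did not overlap (log2 fold change 0.21, adjusted p = 0.105). Canx, the membrane-bound lectin of the same cycle, had 50390, 50678 and 48591 normalized counts in the Control libraries, against 48393, 51378 and 54226 in Prmt1-null libraries. Its lowest and its highest library were both Prmt1-null, with a log2 fold change of 0.04 (95% interval −0.09 to 0.18).

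Dnajb9, Dnajc3 and Dnajb11 encode J-domain proteins, which stimulate BiP. Dnajb9 had 7861, 6926 and 6711 normalized counts against 7308, 6919 and 7339, a log2 fold change of 0.00 (95% interval −0.14 to 0.15). Dnajc3 was at 0.06 and Dnajb11 at 0.14, with adjusted p of 0.785 and 0.443. The remaining chaperone genes were Hyou1, a nucleotide exchange factor for BiP, at 0.09 and Sdf2l1, a partner of the J-domain proteins, at 0.19, and the groups overlapped for both.

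Disulfide and oxidative folding genes held 2 of the 3 members past the threshold. Txndc5 encodes a protein disulfide isomerase with several thioredoxin domains that is abundant in PC. It lies at chr13:38500079-38528824 (GRCm38, minus strand) and had 5766, 5874 and 6496 normalized counts in the Control libraries, against 8415, 8297 and 8061 in Prmt1-null libraries. All 3 Prmt1-null libraries were well above the highest Control library. The rise was 36.6%, or 0.45 on the log2 scale (SE 0.062, adjusted p = 0.00486), and with each library left out in turn the adjusted p stayed between 0.000997 and 0.0461. Exons of Txndc5 overlap those of 2 genes on the opposite strand, the antisense gene Gm31834 over 6.92% of their length and Bmp6 over 4.99%. No value of Gm31834 was used here, its part in the counts of Txndc5 was not tested, and Bmp6 had a mean of 1.469 normalized counts in the Control libraries, against 1.598 in Prmt1-null libraries.

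P4hb, at chr11:120560298-120573253 on the minus strand, encodes protein disulfide isomerase itself. Normalized counts were 12616, 13363 and 12761 in Control and 16095, 16648 and 17180 in Prmt1-null iGBs. The groups were separated by more than either group's range, and P4hb rose by 28.9%, a log2 fold change of 0.37 with SE 0.059 (adjusted p = 0.00921). Without Prmt1-null replicate 2 the adjusted p was 0.0745 at the same fold change.

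No other isomerase passed the threshold with edgeR, and with DESeq2 Pdia4 did (adjusted p = 0.0432). Pdia4 had 29199, 30464 and 30002 normalized counts against 31788, 34586 and 35369, without overlap (log2 fold change 0.18, adjusted p = 0.201 with edgeR). Txndc11 did not overlap either, at 0.15 (adjusted p = 0.355), while Pdia3, the isomerase that works with the lectins, and Pdia6 were at 0.11 and 0.12 with overlap. Creld2, a small UPR target with thioredoxin-like activity, was at 0.22 with an SE of 0.128, and the groups overlapped.

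The oxidases that recharge the isomerases had fold changes below 0. Ero1lb had 11965, 12540 and 12912 normalized counts in the Control libraries, against 11673, 11832 and 11588 in Prmt1-null libraries. All 3 Prmt1-null libraries were lower, but the log2 fold change was only −0.09 (95% interval −0.22 to 0.03, adjusted p = 0.524). Ero1l was at −0.07 and the reductase gene Dnajc10 at −0.02, both with overlap. Of the 10 disulfide genes tested, 7 were thus above 0 and 3 below, with a median of 0.13.

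Of the 14 ERAD genes, 1 passed the threshold with edgeR and 3 with DESeq2. Derl3 encodes a derlin, one of the proteins of the channel through which chains leave the ER, and lies at chr10:75893413-75895941 on the plus strand. It had 1089, 1126 and 964.1 normalized counts in the Control libraries, against 1447, 1597 and 1745 in Prmt1-null libraries. The groups did not overlap, and the rise of 50.6% was the largest of the members, at a log2 fold change of 0.59 with SE 0.105 (adjusted p = 0.0166). The adjusted p was 0.0546 without Control replicate 2, 0.0941 without Prmt1-null replicate 2 and 0.0811 without Prmt1-null replicate 3. The other derlins were at 0.13 (Derl1, adjusted p = 0.47) and 0.05 (Derl2, adjusted p = 0.858), and their groups overlapped. The difference between Derl3 and the other derlins was not tested.

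The HRD1 complex is the main ubiquitin ligase of ERAD. Sel1l, its scaffold, had 6840, 7214 and 7670 normalized counts in the Control libraries, against 8532, 9235 and 8405 in Prmt1-null libraries, without overlap (log2 fold change 0.27, SE 0.064, adjusted p = 0.0603 with edgeR and 0.00432 with DESeq2). Os9, the lectin that brings substrates to Sel1l, had 3017, 3409 and 3757 against 4026, 4287 and 3901, also without overlap (log2 fold change 0.26, adjusted p = 0.136 with edgeR and 0.0453 with DESeq2). For Herpud1, an adaptor of the complex, the counts were 9709, 9783 and 10968 against 11003, 11339 and 12587. The highest Control and the lowest Prmt1-null library were close, though they did not cross, and the log2 fold change was 0.20 (adjusted p = 0.215). Syvn1, which encodes the ligase HRD1, was at 0.07 with overlap (adjusted p = 0.74).

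The remaining ERAD genes passed in neither direction with either tool. Ufd1l, a cofactor of the p97 ATPase that pulls chains out of the membrane, had 2233, 2050 and 2221 normalized counts in the Control libraries, against 1885, 1941 and 1866 in Prmt1-null libraries. All 3 Prmt1-null libraries were lower and the log2 fold change was −0.19 (SE 0.077, unadjusted p = 0.0263, adjusted p = 0.28 from edgeR). Exons of Ufd1l share 4.82% of their length with Cdc45 on the opposite strand, a replication gene whose log2 fold change was −0.18 (adjusted p = 0.296), and whether its reads had a part in the Ufd1l value was not tested. Ube2j1, a membrane-bound ubiquitin-conjugating enzyme, was lower without overlap but by only −0.04 (adjusted p = 0.806). Faf2, an adaptor that recruits p97, and Edem2, a mannosidase-like protein, were both at 0.11 without overlap, with adjusted p of 0.471 and 0.648. Edem1, Edem3 and the ubiquitin-like modifier gene Ufm1 lay between −0.02 and 0.04 with overlap. In all, 11 of the 14 ERAD genes were above 0, and the median was 0.09.

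**Figure D3:**
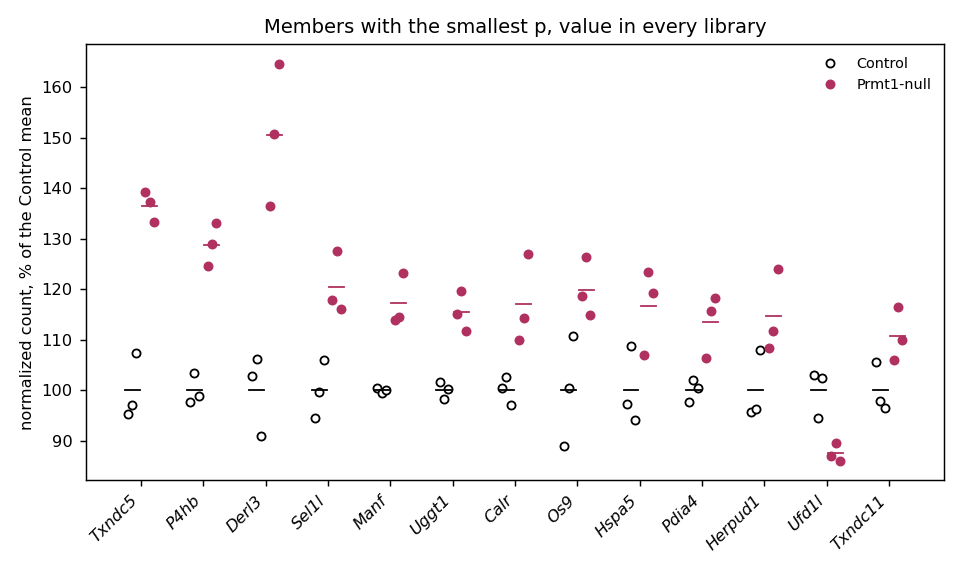
Normalized count in every library, as a percentage of the Control mean, for the 13 members with the smallest p. Open circles are Control, filled circles Prmt1-null libraries and lines the group means. Hspa5 is the only one shown whose groups overlap, and Ufd1l the only one that was lower.

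None of the 4 sensors passed the threshold with edgeR or with DESeq2, 0 had an unadjusted p under 0.05, and the groups overlapped for all 4. Ern1 had 803.1, 677.8 and 671 normalized counts in the Control libraries, against 818.1, 930.1 and 741.1 in Prmt1-null libraries. Prmt1-null replicate 3 was below Control replicate 1, and the log2 fold change was 0.21 (SE 0.124, adjusted p = 0.497). Atf6 had 10661, 9227 and 10430 normalized counts against 9940, 9746 and 10112, with all 3 Prmt1-null libraries inside the Control range.

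Eif2ak3 had 4748, 4308 and 4714 against 4485, 4754 and 4290. Atf6b, which encodes a relative of ATF6, had 2279, 2038 and 2710 against 2611, 2531 and 2238. Their groups overlapped, and the log2 fold changes were −0.03 (95% interval −0.16 to 0.11) for Eif2ak3, −0.02 (−0.16 to 0.11) for Atf6 and 0.07 (−0.15 to 0.29) for Atf6b. For these 3 genes the sign turned with at least 1 library left out, as it did for Canx, Dnajb9, Dnajc10, Derl2, Edem1, Edem3 and Ufm1.

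Between genes, levels were compared per length, as CPM per kb of exon. Calr was the highest in Control at 490 ± 13.6 (SD, n = 3), followed by Pdia4 at 225 ± 4.81, Canx at 192 ± 4.35, Hsp90b1 at 122 ± 14.3 and Pdia3 at 111 ± 2.94. Hsp90b1 and Pdia3 did not differ beyond their spread. Hspa5 at 83.1 ± 6.40 and P4hb at 81.4 ± 2.50 did not either, nor did they in Prmt1-null iGBs, at 96.9 ± 7.08 and 105 ± 3.42. Of the 39 neighboring pairs in this order, 28 were no further apart than the sum of their SDs.

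The members past the threshold thus came from different parts of the range. P4hb stood 7th in Control. Txndc5 stood at place 17, at 24.3 ± 1.58 CPM per kb in Control and 33.1 ± 0.723 in Prmt1-null iGBs, and Derl3 at place 32, at 9.59 ± 0.769 and 14.4 ± 1.35. Ern1 was the lowest of the tested members at 1.58 ± 0.164.

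**Figure D4:**
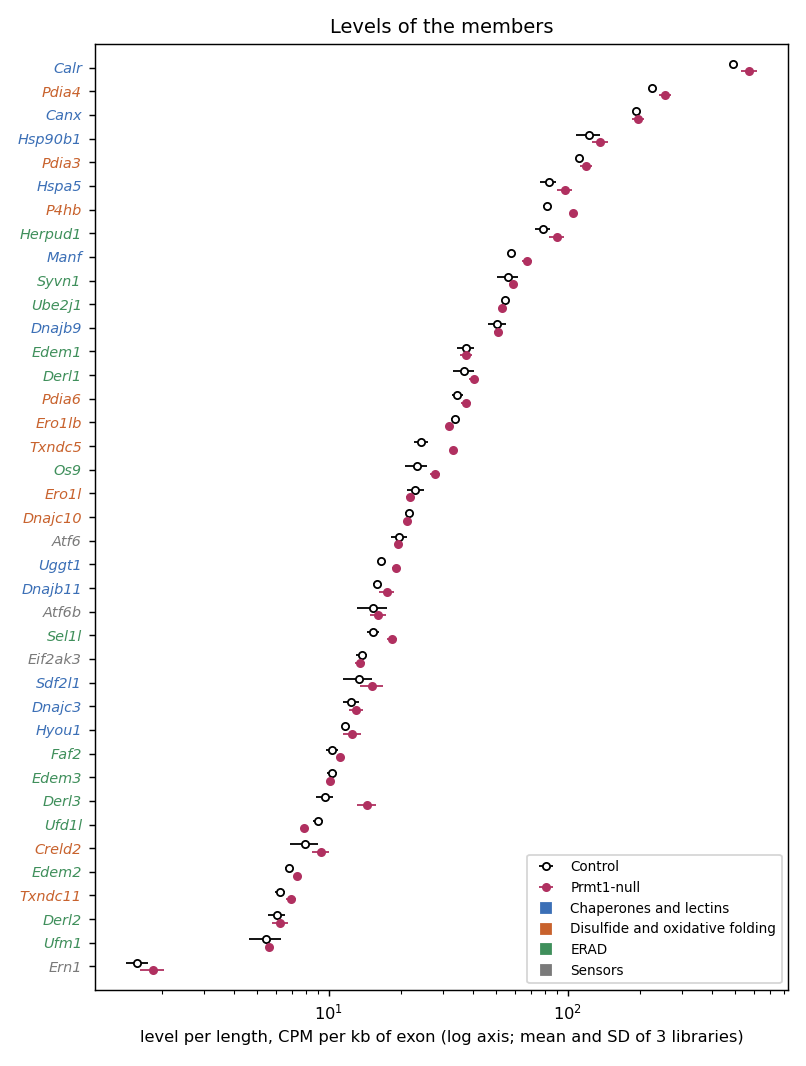
Level per length of the 39 tested members in CPM per kb of exon (log axis), in the order of the Control level. Open circles are Control and filled circles Prmt1-null means with the SD of 3 libraries, and the color of each name gives the role. Levels ran from 1.58 for Ern1 to 490 for Calr in Control.

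Summed over all members, the level was 7522 to 7729 CPM in the Control libraries and 8027 to 8724 CPM in the Prmt1-null libraries, that is 0.752% to 0.773% and 0.803% to 0.872% of normalized counts. Prmt1-null libraries were above all Control libraries in the sums of the chaperones, the disulfide genes and the ERAD genes. The sensor sum was 293 to 334 CPM in Control and 313 to 324 CPM in Prmt1-null iGBs. Prmt1-null replicates differed among themselves. Replicate 3 was the highest of the 6 libraries for 13 members and replicate 2 for 11, whereas replicate 1 was the highest for only 2. Without Prmt1-null replicate 1 the median log2 fold change of the members was 0.156.

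The B cell markers also lay above 0 for the most part. Of these 8, 6 (75%) were above 0, against 49.9% of all genes, and the median was 0.09. Without overlap, 3 (37.5%) were higher, against 9.95% of all genes. An unadjusted p under 0.05 was reached by 2, both higher, against 6.5% of all genes. The threshold was passed by 0 with edgeR or DESeq2. The part of B cell content in the values of the members was not tested.

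Summed levels of PC markers were also higher in every Prmt1-null library. Over 9 genes, they were at 1480 to 1604 CPM in Control and 1647 to 1759 CPM in Prmt1-null iGBs. Of the 8 tested, 6 (75%) were above 0, against 49.9% of all genes, and Jchain (−0.09) and Ell2 (−0.12) were below. Xbp1, Irf4 and Slamf7 were higher at an unadjusted p under 0.05 with edgeR, as were 6.5% of all genes. Xbp1 and Slamf7 (25%) were higher without overlap, against 9.95% of all genes. No PC marker passed the threshold with edgeR, and with DESeq2 Xbp1 and Slamf7 did, where 4.08% of all genes passed. Tnfrsf17, a marker of mature PC, had between 0 and 4 counts per library. Xbp1 is on this list and among the UPR genes below. In these bulk samples more cells of a type and more RNA per cell cannot be told apart, and the part of PC in the values of the members was not tested. Markers of fibroblasts, the cells of the feeder line, summed to 31.24 to 34.85 CPM in Control and 33.54 to 42.85 CPM in Prmt1-null iGBs over 12 genes. All 10 tested were above 0, against 49.9% of all genes, and 2 of them had an unadjusted p under 0.05, against 6.5%. None passed with edgeR or DESeq2, and Postn was at 0 in every library. The highest sums of PC and fibroblast markers were both in Prmt1-null replicate 3, and without it the median log2 fold change of the members was 0.110. Prmt1-null replicates 1 and 2 also had PC sums (1647 and 1685 CPM) above every Control library. A fit without replicate 3 therefore does not separate PC content from genotype. T cell markers summed to 23.62 to 27.85 CPM in Control and 25.89 to 28.97 CPM in Prmt1-null iGBs (7 genes, of which 0 passed with either tool and 0 had an unadjusted p under 0.05). Most of these counts were on Lck, with 1103 to 1608 per library, whereas the other T cell markers had 0 to 66. Myeloid markers summed to 39.17 to 44.43 and 40.33 to 46.5 CPM, with most counts on Cd68 (1327 to 1820 per library). S100a8 ranged from 0 to 412 counts within Control. Of the 6 tested, 1, Adgre1, passed at 0.73 on the log2 scale (adjusted p = 0.0319). With a library left out its adjusted p lay between 0.017 and 0.141 and was under 0.05 in 1 of 6 fits.

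**Figure D5:**
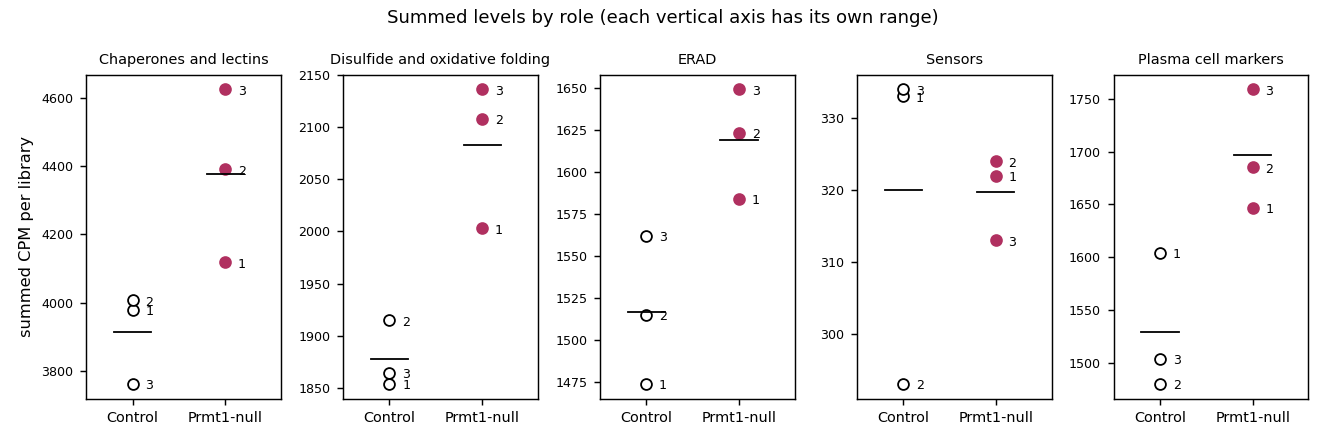
Summed CPM of each role's members and of the PC markers in each library, with the replicate number beside the point and a line at the group mean. Vertical axes have different ranges and do not start at 0. Prmt1-null libraries are above all Control libraries in each panel except that of the sensors.

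Other genes of the UPR and of ERAD were taken from a list of 64 genes, of which 63 were in the table and 62 were tested. Of these, 38 (61.3%) were above 0, against 49.9% of all genes tested. Without overlap, 16 (25.8%) were higher and 0 were lower, against 9.95% and 9.92% of all genes. The threshold was passed by 1 with edgeR and 6 with DESeq2, against 1.18% and 4.08% of all genes in either direction. The median was 0.04. The 18 UPR effectors accounted for 5 of the 6 DESeq2 calls (Xbp1, Atf4, Chac1, Sesn2 and Tmbim6). They also accounted for 8 of the genes that were higher without overlap (44.4% of the effectors), with a median of 0.11. Chac1, which encodes a glutathione-degrading enzyme and is a target of ATF4, had 744.8, 699.7 and 705.2 normalized counts in the Control libraries, against 1013, 1080 and 1340 in Prmt1-null libraries. All 3 Prmt1-null libraries were higher, and Chac1 rose by 0.68 on the log2 scale (SE 0.121, adjusted p = 0.0173). Its promoter window held an ATF4 element on the other strand, shown in capitals.
Chac1, chr2:119351043-119351062, plus strand: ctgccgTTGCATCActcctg
The call of Chac1 was lost without Control replicate 2 (adjusted p = 0.096), Prmt1-null replicate 2 (0.0733) or Prmt1-null replicate 3 (0.076).

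Atf4 had 12728, 13983 and 13045 normalized counts against 15855, 15120 and 15758, without overlap (log2 fold change 0.23, adjusted p = 0.0865 with edgeR and 0.00582 with DESeq2). Xbp1, the target of IRE1, was at 0.29 (adjusted p = 0.0571 with edgeR and 0.00104 with DESeq2) and Sesn2, a stress gene that restrains mTORC1, at 0.28 (adjusted p = 0.0646 and 0.00945), both also without overlap. Of the alternatives with all libraries, Xbp1 also passed with limma-voom (0.031), no filter on low counts (0.00098) and sex as a covariate (0.0415), and it passed in none of the fits with a library left out (0.0595 to 0.291). Ddit3, which encodes the factor CHOP, had 628.1, 617.2 and 748.1 normalized counts against 668.3, 614.9 and 524.6. Its groups overlapped and its log2 fold change was −0.14 (95% interval −0.42 to 0.14). Counts on Xbp1 do not tell its spliced from its unspliced form.

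The 27 other ERAD genes had a median of 0.07, with 20 (74.1%) above 0, against 49.9% of all genes. None passed with edgeR, where 5 were higher at an unadjusted p under 0.05, against 6.5% of all genes. With DESeq2 1 (Aup1) passed, where 4.08% of all genes did. Aup1 (0.24, adjusted p = 0.11), Hm13 (0.15, adjusted p = 0.277) and Erlin2 (0.26, adjusted p = 0.291) had the smallest p, and none of these overlapped. Among the 17 other folding genes tested, 11 were below 0 and 6 above, with a median of −0.04, and 0 passed with either tool or had an unadjusted p under 0.05. Sdf2 was at 0.35 (adjusted p = 0.377), and the membrane-bound isomerase genes Tmx1 and Tmx3 were at −0.15 (adjusted p = 0.534) and −0.08 (adjusted p = 0.608).

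Fold changes were also set beside the promoter elements shown above. Of the 10 members with the ER stress response element, 9 were above 0, 1 (Derl3) passed the threshold and 2 were higher without overlap, with a median of 0.14 and a range from −0.09 for Ero1lb to 0.59 for Derl3. The 25 tested members with a window that lacked it had a median of 0.11. Of these, 19 were above 0, 2 passed the threshold and 10 were higher without overlap. Among all genes tested, 49.9% were above 0, 0.58% passed and were higher, and 9.95% were higher without overlap. Hspa5, Canx and Ero1lb, whose elements are printed above, were at 0.22, 0.04 and −0.09. No difference between members with and without the element was tested.

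The number of members past the threshold depended on the test. DESeq2's Wald test gave 10, all higher in Prmt1-null iGBs and the 3 above among them, where it called 746 genes in all against edgeR's 216. With no filter on low counts edgeR gave 8 members, where 2.63% of all genes passed. With edgeR the count was 1 (Txndc5) without Prmt1-null replicate 2, where 31 genes (0.166%) passed in all, and 5 without Control replicate 3, where 340 (1.79%) did.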

How the data were processed

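Per the labels, libraries were made with a stranded kit after rRNA depletion. According to the submitters' processing notes and the study's methods, reads were trimmed (Trimmomatic 0.32) and mapped to mm10 (STAR 2.3.0e) by the authors, who counted primary alignments to at most a pair of locations on Ensembl exons with featureCounts 1.4.4. The deposited values are these raw counts, which the authors had not normalized. The strand setting of the counting is not given in the sources used here, and exons of 12 members share bases with another annotated gene.

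Counts were tested in R 4.3.3 with edgeR 4.0.16 (TMM, filterByExpr with a minimum count of 10, glmQLFit and glmQLFTest, genotype as the only term), after removal of 398 chromosome Y genes. Standard errors came from the log2 fold change and the F statistic. Normalized counts are counts scaled to the mean effective library size. Exon lengths and positions were from GENCODE M21 (GRCm38), where 37693 genes matched by ID, 803 by symbol and 521 not at all. Promoters were RefSeq windows of GRCm38.p6. A gene with 3 counts, the smallest number taken as detected, is at 0.0478 to 0.0662 CPM. Such floors cover counting error only, since reads carry no molecular identifiers.

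Groups, sexes and replicate numbers were from the labels, and libraries are of separate mice. Members and lists were chosen with earlier results of these data known. Values in every library are given for members past the threshold, those with the 12 smallest p, the 3 highest levels, the extremes of each role and the sensors, and values are given for the 3 smallest p in each group of the other list and for Xbp1, Atf4 and Ddit3. The alternatives were DESeq2 1.42.0, limma-voom (limma 3.58.1), DESeq2 size factors, no filter on low counts, chromosome Y genes kept, sex as a covariate, the replicate number as a block, and each library left out. The scripts were tested on simulated data.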

Additional observations from a re-analysis of the deposited data

How the results depend on the processing

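The number of members past the threshold, 3 with edgeR, was 10 with DESeq2's Wald test and 8 with no filter on low counts, where 675 of 25707 genes passed in all, and lay between 1 and 5 with a library left out. The number of other UPR and ERAD genes past it, 1 with edgeR, was 6 with DESeq2, 2 with limma-voom, 6 with no filter and 2 with sex as a covariate, and 0 to 3 with a library left out. The median log2 fold change of the members lay between 0.098 and 0.156 with a library left out, and between 29 and 35 members were then above 0. Fits with a library left out leave 2 against 3, and the cause of these shifts was not tested. Same-numbered libraries come from different mice and did not deviate together (correlations −0.0716, 0.0482 and −0.0772). With the replicate block 3 members passed, 31 were above 0, the median was 0.111, and 151 genes passed in all. Signs turned with a library left out for Canx (−0.00071 to 0.09), Dnajb9 (−0.04 to 0.08), Eif2ak3 (−0.07 to 0.01), Atf6 (−0.09 to 0.02), Atf6b (−0.02 to 0.19), Dnajc10 (−0.04 to 0.02), Derl2 (−0.02 to 0.12), Edem1 (−0.06 to 0.06), Edem3 (−0.06 to 0.01) and Ufm1 (−0.06 to 0.15), none of which passed the threshold. Of the 217 values of named genes refitted with all libraries, 194 kept their sign and side of the threshold and 23 newly passed it, and of the 186 with a library left out 167 kept both, 7 lost their call, 3 newly passed and 9 changed sign. For Pdia5, with 0 to 12 counts per library, no difference was detectable at this depth.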
